A study of Mus musculus with 16 samples.

Results

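The comparison set liver RNA from Alb::GC transgenic mice against liver RNA from wildtype mice, both fed a low fat diet (LFD). It rests on 4 of the 16 expression arrays of the study, 2 for LFD Alb::GC and 2 for LFD wildtype, chosen from the genotype and diet given in the description of each array. All 22626 probe sets that are not controls entered it. The mice of these 4 arrays were male and of the FvB/n strain. The labels give no age, no length of feeding and no hour of collection. The study held 4 more arrays of the same 2 genotypes on a high fat diet (HFD) and 8 arrays of TTR::Fv2E-PERK transgenic livers, 4 untreated and 4 treated with AP20187. For LFD wildtype replicate 2 the source name lists both genotypes while the description gives wildtype alone, and it was placed by the description. Whether each array came from its own animal is not stated in the labels, so the spread behind every p-value may be technical.

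The integrated stress response starts with kinases such as PERK that phosphorylate the translation factor eIF2 on its alpha subunit. This lowers general protein synthesis and favours translation of the transcription factor ATF4, which with CHOP drives genes of amino acid supply, redox balance and recovery. Recovery comes through GADD34, the product of Ppp1r15a, which brings protein phosphatase 1 to eIF2 and removes the phosphate. As background from the study's publication, GC stands for an active carboxy-terminal fragment of GADD34, and the albumin promoter (Alb) places it in hepatocytes, so eIF2 phosphorylation is kept low in those cells. The comparison asks what this does to liver transcripts on a lean diet. AP20187, in contrast, switches on the Fv2E-PERK kinase.

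Each value was a ratio per probe set around 1, given to 2 decimals, whose reference is not given in the sources used here. A ratio holds no absolute level, so neither a transcript's abundance nor its presence can be read from it. The 4 arrays had median ratios of 0.96 to 1.02. Replicates of LFD wildtype correlated across probe sets with a Spearman coefficient of 0.377 and those of LFD Alb::GC with 0.325, against 0.202 to 0.320 between the genotypes, as a description only. The 3' minus 5' log2 difference of Gapdh probe sets was 0.16 to 0.22 in wildtype and 0.04 to 0.16 in Alb::GC. For Actb it was 0.21 and -0.03 in wildtype against 0.18 and -0.16 in Alb::GC, and -0.71 to -0.33 on the HFD arrays. Each probe set is itself a ratio to an unstated reference, so this is only a rough check of RNA integrity. Its part in the results was not tested. Of 14 hepatocyte markers, such as Alb, Ahsg and Ttr, the mean ratio was 1.12 and 0.994 in wildtype against 0.846 and 0.998 in Alb::GC. These ranges touch, while 12 of the 14 differences lay below 0 and 1 was lower at an unadjusted p under 0.05.

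No probe set passed an adjusted p of 0.05 for Alb::GC against wildtype on LFD (0 of 22626, 0%; limma on log2 of the ratio plus 0.05, with 1 spread shared by the 8 diet arrays). The smallest adjusted p was 0.0818. At an unadjusted p under 0.05 there were 1030 probe sets higher and 1307 lower in Alb::GC, 10.3% of all. At an unadjusted p under 0.001 there were 76 higher and 48 lower, 0.548% of all. The 2 Alb::GC arrays lay entirely above the 2 wildtype arrays in 3499 probe sets and entirely below in 5264, together 38.7%. None of 13 other settings gave a call, and their smallest adjusted p ran from 0.0565 to 0.469. The genes below are therefore given as values, and none is called changed on LFD. With 1 probe set for each of 12393 genes, the median difference over all genes was -0.07 on the log2 scale.

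The 12 genes of smallest unadjusted p among those higher in Alb::GC had differences of 1.35 to 3.42 on the log2 scale, with adjusted p of 0.0818 to 0.0992 by limma. Lpin1, a phosphatidate phosphatase of triglyceride synthesis and a nuclear coregulator, had ratios of 0.24 and 0.18 in wildtype against 0.91 and 0.98 in Alb::GC. Its difference was 1.95 ± 0.16 (SE), and its other probe set gave 1.66. Ndrg1, a stress- and differentiation-associated gene, had 0.55 and 0.99 in wildtype against 6.77 and 6.31 in Alb::GC, a difference of 3.06 ± 0.29 (SE). Its other 4 probe sets lay between 1.01 and 1.49, so all 5 were higher in Alb::GC. Cish, a SOCS-family inhibitor of cytokine signalling and a STAT5 target, stood at 0.89 and 1 in wildtype against 2.71 and 2.27 in Alb::GC. For the small heat shock protein gene Hspb1 both probe sets were higher, by 1.92 and 1.12. In each of these 4 genes the lowest Alb::GC array was above the highest wildtype array, which choosing by small p on these arrays favours.

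Other genes of this group rested mainly on 1 probe set. The kinase gene Jak1 had the largest difference of the 12 in the main setting, with 0.03 and 0.05 in wildtype against 1 and 0.82 in Alb::GC. Its other probe sets differed by 0.05 and 0.48. Over the settings the Jak1 difference ran from 2.21 to 4.22 and that of Ndrg1 from 2.66 to 4.78, so this rank depends on the setting. Mrpl19, a mitochondrial ribosomal protein gene, differed by 3.36 in one probe set and by -1.03 and -0.66 in the others. The forkhead factor gene Foxp1 differed by 2.76 in one probe set and by -0.39 to 0.04 in its other 6. Mrpl19, Foxp1, Ptbp3, Gmfb, Adam19, Spag5 and Tbc1d8 had no second probe set at an unadjusted p under 0.05 in the same direction. Of the 24 genes named here in both directions, 16 had more than 1 probe set and 4 of those had a second one at an unadjusted p under 0.05 in the same direction, which were Lpin1, Ndrg1, Hspb1 and Jak1.

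The 12 genes of smallest unadjusted p among those lower in Alb::GC had differences between -4.49 and -1.05. Ube2c, the ubiquitin-conjugating enzyme of the anaphase-promoting complex, was at 6.94 and 3.73 in wildtype against 0.13 and 0.24 in Alb::GC, the largest of these differences at -4.49 ± 0.34 (SE). Mcm2, a subunit of the replicative helicase, was at 2.08 and 2.22 against 0.99 and 1, and its other probe set differed by -0.38. Zc3h12a, a ribonuclease that degrades inflammatory transcripts, was at 1.14 and 0.94 against 0.43 and 0.44. Lsm7, of the mRNA decay and splicing Lsm rings, was at 2.21 and 2.36 against 0.85 and 0.78. Tef, a transcription factor of the clock output, Crx, Hsd17b1, Art3, Tpd52l1, Plek2, Sgip1 and Actl6a made up the rest, and other probe sets of Crx, Sgip1 and Actl6a lay on the opposite side, at 0.21, 1.36 and 0.17. Wildtype and Alb::GC arrays did not overlap in any of the 12. Over all probe sets the arrays were apart in 38.7%. The 12 were chosen by small p on the same arrays, so this separation follows largely from the choice.

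**Figure D1:**
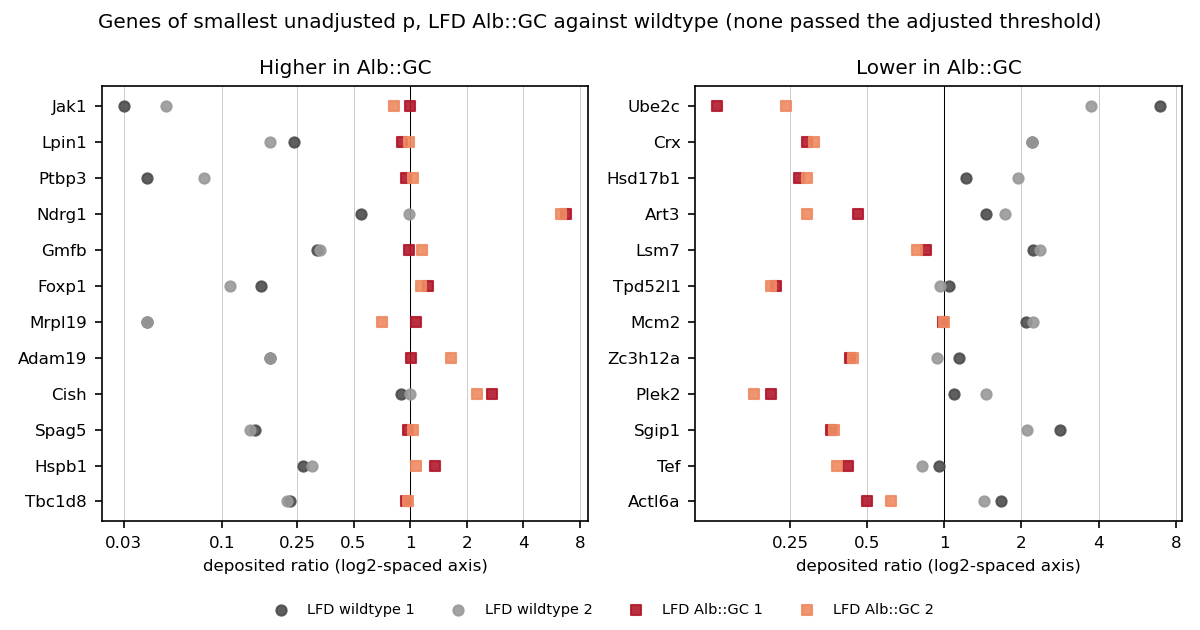
Deposited ratios (horizontal axis, log2-spaced) on the 2 LFD wildtype arrays (grey circles) and the 2 LFD Alb::GC arrays (red and orange squares) for the 24 genes of smallest unadjusted p, 12 in each direction. The genotypes are apart in every gene, which choosing by small p on these arrays favours. In the main setting the largest differences were -4.49 for Ube2c among the lower and 3.42 for Jak1 among the higher. No adjusted p was below 0.0818.

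Ppp1r15a itself, the gene whose product the transgene copies in part, had ratios of 0.85 and 1.16 in wildtype against 1.24 and 1.51 in Alb::GC. The difference was 0.44 ± 0.23 (SE) with an adjusted p of 0.555 by limma. The arrays did not overlap, but the gap between 1.16 and 1.24 was smaller than the spread within either genotype. Whether its single probe set lies in the fragment that the transgene carries is not given in the sources used here, so it does not check the genotype labels. Ppp1r15b, the gene of CReP, the other regulatory subunit of the eIF2 phosphatase, was at 0.5 and 0.28 against 0.9 and 0.89 (difference 1.15 ± 0.32 SE, adjusted p 0.347 by limma). Its other probe set differed by -0.17, so its probe sets disagree. Of the 17 measured genes of eIF2 kinases, phosphatase subunits and eIF2 itself, 2 were higher and 1 lower at an unadjusted p under 0.05, 17.6% against 10.2% of all genes. They were Ppp1r15b, Dnajc3, which encodes the PERK inhibitor p58IPK, at 0.55 and 0.63 against 0.83 and 0.95, and Eif2b2, of the eIF2B exchange factor, at 1.61 and 1.35 against 1.01 and 1.02. The other 4 Dnajc3 probe sets overlapped between the genotypes and differed by -0.20 to 0.43. The PERK gene Eif2ak3 was at 1.03 and 0.92 against 1 and 0.89. Its other probe sets differed by 0.22 and 0.62 on the log2 scale, with unadjusted p of 0.831 and 0.366 by limma. In the probe set that differed by 0.62 the arrays were apart, at 0.14 and 0.24 against 0.3 and 0.32.

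The transcripts of the stress response lay on both sides of 0. Of 22 measured genes of the ATF4 and CHOP program, 2 were higher at an unadjusted p under 0.05 and none lower, 9.09% and so near the 10.2% of all genes, 9 lay above 0 and 13 below, and their median difference was -0.13. In the AP20187 experiment, on other arrays, the median of the same list was 1.35. Ddit3, the gene of CHOP, had 0.81 and 0.9 in wildtype against 2.21 and 1.32 in Alb::GC, with a difference of 0.96 ± 0.27 (SE). Sesn2, a stress-induced inhibitor of mTORC1, had 0.85 and 0.89 against 1.42 and 1.32. The genotypes were apart in these 2 probe sets, with adjusted p of 0.351 and 0.432 by limma, and overlapped in the other Sesn2 probe set, which differed by 0.36. Trib3, a pseudokinase that CHOP and ATF4 induce, lay the other way, at 1.91 and 1.08 against 0.92 and 0.85. Atf4 was at 1.19 and 1 against 0.84 and 1.45, and Fgf21, the fasting and stress hormone of liver, at 1.08 and 1.68 against 0.86 and 2.36, so the genotypes overlapped in both. Atf3, an early stress factor, was at 1.11 and 0.57 against 0.29 and 0.64.

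**Figure D2:**
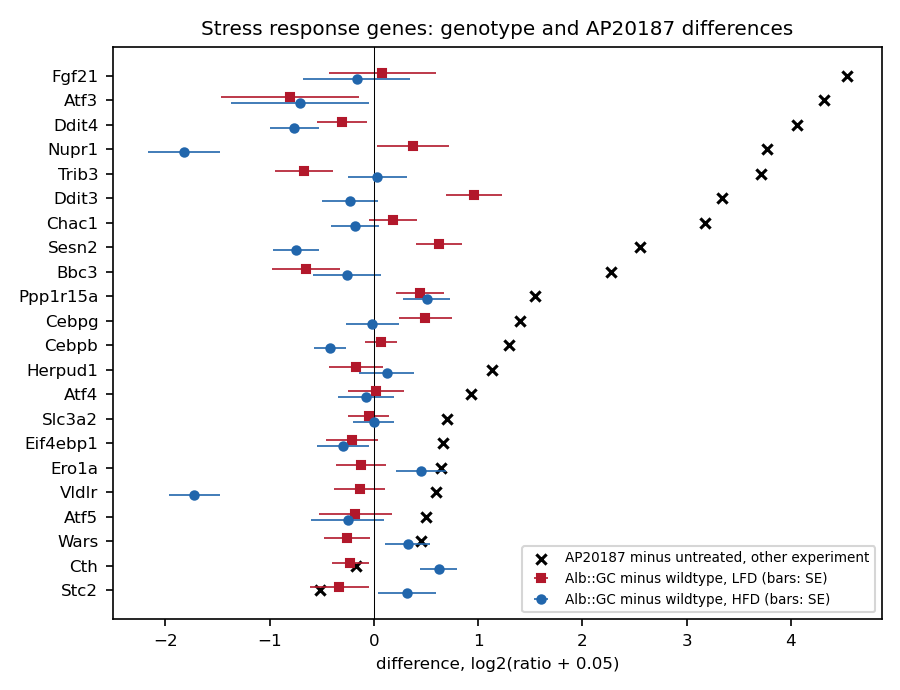
Differences on the log2(ratio + 0.05) scale (horizontal axis) for 22 stress response genes, as Alb::GC minus wildtype on LFD (red squares) and on HFD (blue circles), with SE bars, and as AP20187 minus untreated in the other experiment (crosses). The LFD values run from -0.81 for Atf3 to 0.96 for Ddit3, while AP20187 values reach 4.54 for Fgf21.

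The genes that answered AP20187 most were read on the LFD arrays as well, since the experiments share no array. Among the 200 genes with the largest rise with AP20187 that passed the test there, 24 were higher and 15 lower in Alb::GC on LFD at an unadjusted p under 0.05, and their median difference was 0.07. The 39 are 19.5% of that list, against 10.2% of all genes, in both directions. Among the 200 with the largest fall, 11 were higher and 19 lower, which is 15%, and the median was -0.10. With AP20187, 34.1% of probe sets passed the adjusted threshold. Genes of amino acid synthesis and transport, many of them ATF4 targets, had a median of 0.09 on LFD over 17 members, with 1 probe set of Slc6a9, a glycine transporter gene, at 0.45 and 0.83 against 1.41 and 1.39 and its other differing by 0.13. The same list held Slc1a5, a glutamine transporter gene, at 0.71 and 0.42 against 0.33 and 0.19. Its 2 members at an unadjusted p under 0.05 were 11.8% of the list.

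Of 20 measured genes of ER chaperones and ER-associated degradation, 2 were higher in Alb::GC at an unadjusted p under 0.05 and none lower, 10% and so near the 10.2% of all genes. In this list 17 lay above 0, the 2 Alb::GC arrays were entirely above wildtype in 8 and entirely below in none, and the median difference was 0.26. Over all genes the arrays were entirely above in 14.1%, entirely below in 24.2% and apart in either direction in 38.3%, against 40% of this list. Creld2, an ER stress-inducible disulfide isomerase-like gene, was at 0.41 and 0.59 against 0.86 and 0.75. Manf, a secreted ER stress factor, was at 0.62 and 0.65 against 0.81 and 0.79. Without LFD Alb::GC replicate 2 the median of this list was 0.00, and without LFD wildtype replicate 2 it was 0.05, so its size depends on those arrays. With each gene's probe set of smallest spread it was 0.15.

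Of 19 measured heat shock genes, cytosolic and mitochondrial, 6 were higher in Alb::GC at an unadjusted p under 0.05 and none lower, which is 31.6% against 10.2% of all genes. The genotypes were apart in 12. Alb::GC was entirely above in 11, or 57.9% against 14.1% of all genes, and the median difference was 0.39. HSF1 is the main inducer of such genes. Hsph1, a nucleotide exchange factor for HSP70, was at 0.28 and 0.4 in wildtype against 0.95 and 1 in Alb::GC, a difference of 1.41 ± 0.23 (SE), and its other probe set differed by 1.04. Bag3, a cochaperone, was at 0.63 and 0.55 against 1.39 and 1.27. Dnajb1, an HSP40, was at 1.08 and 0.73 against 1.41 and 1.62. Hspa4l and Dnajb4 differed by 0.61 and 0.66 on the log2 scale, and Hspb1 completes the 6. The other Dnajb4 probe set overlapped, with a difference of 0.19. The abundant constitutive chaperone genes Hspa8, Hspd1 and Hspe1 had overlapping arrays, and Dnaja1, an HSP40, was at 1.02 and 0.92 against 0.83 and 0.89, the 1 gene with Alb::GC entirely below. On HFD the median of the list was 0.03. There the Hspb1 probe sets were lower in Alb::GC, by -0.62 and -0.53, while those of Hsph1 differed by 0.33 and 0.32. Leaving out any 1 LFD array kept the LFD median between 0.28 and 0.39.

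The promoters of Hspb1 and Hsph1 are shown because both probe sets of each gene were higher on the Alb::GC arrays. They are the 150 bases before the RefSeq start in GRCm38.p6, 5′ to 3′ on the gene's strand, with matches to GAANNTTC or TTCNNGAA, the paired units of the heat shock element, in capitals. Both motifs read the same on either strand and can overlap each other. Where a gene had several starts, the first with a match was shown, here and for the clock genes below. The Hspb1 stretch is chr5:135887769-135887918 on the plus strand, with matches that begin 117 and 97 bases before the start, and the Hsph1 stretch is chr5:149636337-149636486 on the minus strand, with 1 match that begins 33 bases before it.
Hspb1: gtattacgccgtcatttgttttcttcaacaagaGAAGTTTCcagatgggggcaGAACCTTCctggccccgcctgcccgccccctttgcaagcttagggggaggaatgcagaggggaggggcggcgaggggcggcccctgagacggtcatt
Hsph1: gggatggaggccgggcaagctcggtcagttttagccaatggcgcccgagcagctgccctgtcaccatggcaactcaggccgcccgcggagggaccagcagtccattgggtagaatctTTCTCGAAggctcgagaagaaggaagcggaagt
In the 250 bases before the start, 8 of 16 matched heat shock genes held such a match, which was 40.9% of their 22 starts against 12.8% of 32851 starts in the RefSeq table. The 8 were Dnaja1, Dnajb4, Hspa1a, Hspa1b, Hspb1, Hspd1, Hspe1 and Hsph1. They include Hspd1 and Hspe1, whose arrays overlapped, and Dnaja1, with Alb::GC entirely below. A match is a description of the letters and shows no binding.

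The clock genes held differences in both directions. Of 19 measured clock genes and outputs, 4 were higher and 5 lower in Alb::GC at an unadjusted p under 0.05, 47.4% against 10.2% of all genes. On the lower side were Dbp and Tef, the PAR bZIP factors that carry the clock to liver metabolism, and Nr1d1, Nr1d2 and Per3. Dbp was at 1.34 and 0.95 in wildtype against 0.28 and 0.22 in Alb::GC, a difference of -1.98 ± 0.27 (SE), and its other probe set differed by -2.69. Tef was at 0.95 and 0.82 against 0.42 and 0.38, and its other probe sets differed by -0.46 and -0.44. Nr1d1, the gene of the repressor REV-ERB alpha, was at 1.27 and 0.95 against 0.14 and 0.44, and Nr1d2, of REV-ERB beta, at 1 and 0.7 against 0.31 and 0.4. Per3, a period gene, was at 0.87 and 0.86 against 0.55 and 0.56. In these 5 probe sets the genotypes did not overlap. They overlapped in 1 other Tef probe set (-0.46), the other Nr1d2 probe set (-0.81) and the other Per3 probe sets (-1.24 and 0.12).

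On the higher side were Npas2, Per1, Rora and Cry1. Npas2, the CLOCK paralogue that pairs with BMAL1, was at 0.4 and 1.23 in wildtype against 5.25 and 3.2 in Alb::GC, a difference of 2.45 ± 0.52 (SE). Per1, a period gene, was at 0.23 and 0.39 against 0.84 and 0.95, and Cry1, a repressor of CLOCK and BMAL1, at 1.03 and 0.38 against 1.36 and 1.46. The Rora probe set differed by 0.39, and its other probe sets overlapped with differences of 0.18 and 0.45. Adjusted p by limma ran from 0.0992 for Tef upwards across the list. On HFD the genotype difference was 0.37 for Dbp, -0.12 for Nr1d1 and 0.19 for Npas2. There Dbp stood at 5.82 and 6.24 in wildtype against 7.68 and 7.96 in Alb::GC, above all 4 LFD arrays. The labels do not give the hour at which the livers were taken.

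Promoters of Tef and Cry1 are shown since they stand for the lower and the higher side and both hold the E-box CACGTG, the site of CLOCK and BMAL1, in capitals. The stretches are the 150 bases before the RefSeq start in GRCm38.p6, chr15:81802523-81802672 on the plus strand for Tef and chr10:85185055-85185204 on the minus strand for Cry1, with matches that begin 127 and 60 bases before the start.
Tef: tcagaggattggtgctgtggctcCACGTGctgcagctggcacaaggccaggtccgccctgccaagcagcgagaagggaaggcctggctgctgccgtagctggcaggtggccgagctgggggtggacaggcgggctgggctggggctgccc
Cry1: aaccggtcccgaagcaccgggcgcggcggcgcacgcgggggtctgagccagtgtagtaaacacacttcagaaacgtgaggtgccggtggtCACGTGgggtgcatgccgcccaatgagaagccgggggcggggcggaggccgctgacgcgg
The E-box reads the same on both strands. It was in the 250 bases before the start of 4 of 17 matched clock genes, which were Bhlhe41, Cry1, Per1 and Tef, and in 22.7% of their 22 starts against 6.02% of all starts in the table. Of these 4, Cry1 and Per1 stood higher and Tef and Bhlhe41 lower in Alb::GC.

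Proliferation genes mostly stood lower on the Alb::GC arrays. Of 27 measured genes of replication and mitosis, 9 were lower at an unadjusted p under 0.05 and none higher (33.3% against 10.2% of all genes), 24 lay below 0, and the median difference was -0.57. The genotypes were apart in 15, all with Alb::GC below, 55.6% against 24.2% of all genes. Birc5, the gene of the mitotic regulator survivin, was at 6.74 and 2.17 in wildtype against 0.57 and 0.38 in Alb::GC. Ccnb2, a mitotic cyclin, was at 9.07 and 3.43 against 0.69 and 1.14, and Ccna2, a cyclin of S phase and mitosis, at 2.69 and 1.35 against 0.73 and 0.92. In these 3 genes LFD wildtype replicate 1 was the highest array. Without it the median of the list was -0.38, and without LFD wildtype replicate 2 it was -0.63. The Birc5 difference, -2.91 with all arrays, ran from -3.72 to -2.10 with 1 left out. On HFD the median was -0.27.

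Growth arrest and early response genes lay on both sides of 0, and some members stood far apart. Cdkn1a, the gene of the cell cycle inhibitor p21, was at 0.66 and 0.59 in wildtype against 2.26 and 3.14 in Alb::GC, a difference of 2.01 ± 0.34 (SE), and its other probe set differed by 3.75. Gadd45g, a stress gene of growth arrest, was at 2.38 and 1.41 against 3.85 and 3.99. Myc, a transcription factor of growth, was at 0.92 and 1.11 against 5.11 and 4.16, a difference of 2.14 ± 0.30 (SE). The immediate early genes Ccn1, Junb, Dusp1 and Klf10 lay below wildtype, with Dusp1, a MAP kinase phosphatase, at 1.85 and 1.1 against 0.72 and 0.67. The median was -0.05 over 18 genes of p53 and growth arrest and -0.06 over 27 immediate early genes. At an unadjusted p under 0.05, 3 of the 18 were higher and 1 lower (22.2%). Of the 27, 1 was higher and 4 lower (18.5%), against 10.2% of all genes. On HFD the Cdkn1a probe sets differed by -1.19 and -2.98, Gadd45g by -0.57 and Myc by 0.08.

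**Figure D3:**
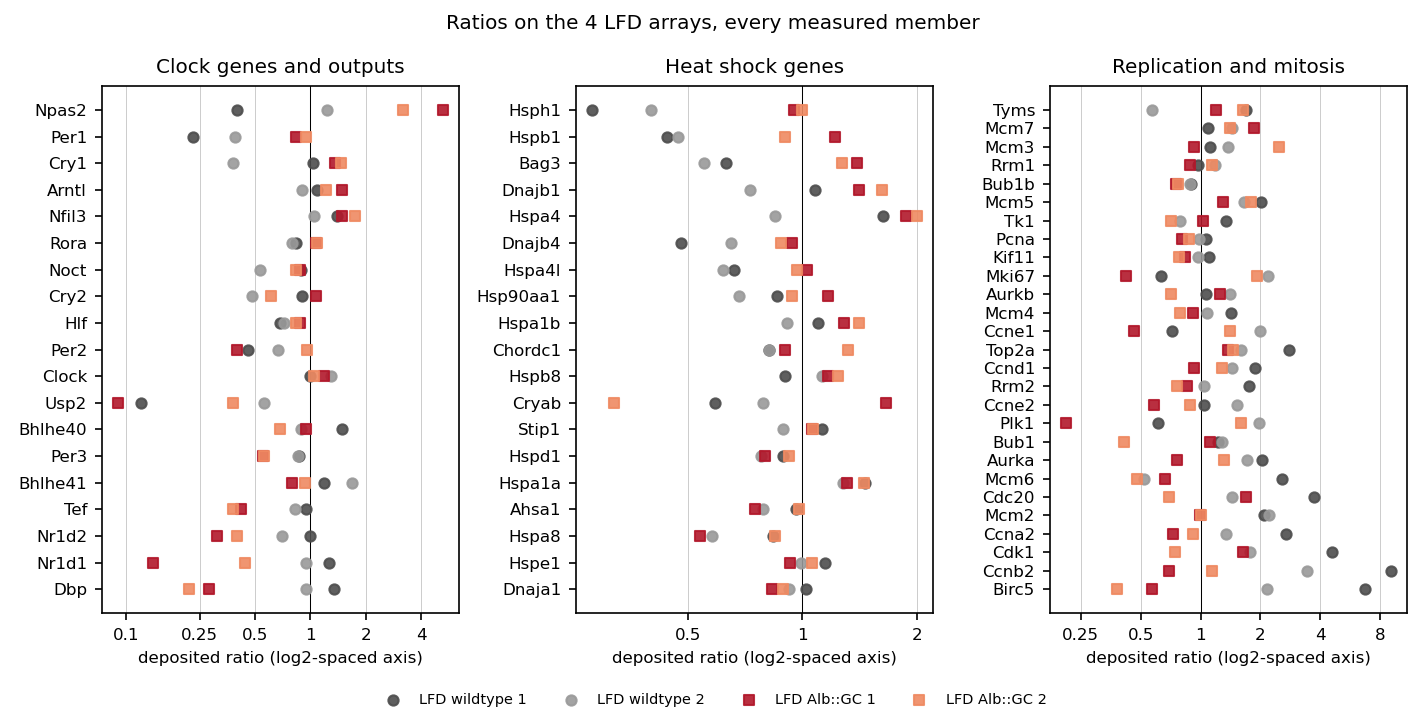
Deposited ratios (horizontal axis, log2-spaced) on each of the 4 LFD arrays for every measured clock gene (19), heat shock gene (19) and replication or mitosis gene (27), ordered by difference. Clock genes separate at both ends (Npas2 at 2.45, Dbp at -1.98), and most heat shock genes lie to the right and most replication genes to the left in Alb::GC.

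On LFD, 4 lipid synthesis genes and no lipid droplet gene reached an unadjusted p under 0.05. Of 21 measured genes of fatty acid and triglyceride synthesis, 4 were higher in Alb::GC at an unadjusted p under 0.05 and none lower, 19% against 10.2% of all genes, with a median of 0.08. That median was -0.08 without LFD Alb::GC replicate 1 and -0.02 without LFD wildtype replicate 2. They were Lpin1, Lpin2, a second lipin, at 0.49 and 0.57 against 0.97 and 0.85, Acly, which makes cytosolic acetyl-CoA, at 0.82 and 0.49 against 1.28 and 1.18, and Pklr, the liver pyruvate kinase gene, at 0.58 and 0.8 against 1.37 and 1.08. The 5 Acly probe sets disagree. One was lower in Alb::GC, at 1.96 and 1.24 against 0.92 and 0.73 (difference -0.89), and the other 3 differed by -0.11, 0.37 and 1.53 with unadjusted p above 0.05. Pparg, the lipogenic nuclear receptor, was at 1.13 and 1.88 in wildtype against 0.5 and 0.59 in Alb::GC, a difference of -1.35 ± 0.35 (SE) with an adjusted p of 0.323 by limma. Of 12 C/EBP and lipid transcription factor genes, 2 were lower at an unadjusted p under 0.05 (16.7%), Pparg and Cebpa, with a median of 0.02 that was 0.30 without LFD wildtype replicate 1. Cebpa, of C/EBP alpha, was at 1.2 and 0.97 against 0.55 and 0.82, while Cebpb, of C/EBP beta, overlapped at 0.92 and 0.83 against 0.87 and 0.97. None of 16 lipid droplet and lipid uptake genes reached an unadjusted p under 0.05, and Cidec, a droplet fusion gene, was at 1.08 and 0.79 against 0.88 and 0.56.

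Genes of cytochrome P450 and conjugation and of oxidative phosphorylation had medians below that of all genes (-0.07). Of 25 genes of cytochrome P450 and conjugation, 6 were lower at an unadjusted p under 0.05 and none higher, 24% against 10.2% of all genes. Alb::GC lay entirely below in 19, or 76.0% against 24.2% of all genes, and the median was -0.36. The glutathione transferase genes Gstm1 (1.38 and 1.15 against 0.54 and 0.91), Gstp1 (1.49 and 1.41 against 0.97 and 1) and Gsta2 (2.17 and 1.63 against 1.27 and 1.1) were among them, but the other 3 Gstm1 probe sets overlapped and differed by -0.16 to -0.01. Of 54 oxidative phosphorylation genes, 52 lay below 0 with a median of -0.24. Alb::GC lay entirely below in 53.7%, but the 4 genes lower at an unadjusted p under 0.05 were 7.41%, under the share of all genes. The 14 hepatocyte markers had a median of -0.20 with 12 below 0, and their part in these lists was not tested. The median ratio of the oxidative phosphorylation genes was 1.24 and 1.08 in wildtype against 0.96 and 1.04 in Alb::GC. For these genes wildtype replicate 2 and Alb::GC replicate 2 were therefore close. Without LFD wildtype replicate 1 the oxidative phosphorylation median was -0.14, and without LFD Alb::GC replicate 1 it was -0.15.

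Among 21 genes of bile acid synthesis and transport, 3 were lower at an unadjusted p under 0.05 and none higher, 14.3% against 10.2% of all genes. The median was -0.33, and -0.17 without LFD wildtype replicate 1 or -0.20 without LFD Alb::GC replicate 1. Nr0b2, the gene of the repressor SHP, was at 3.09 and 1.51 in wildtype against 0.66 and 0.59 in Alb::GC, a difference of -1.72 ± 0.32 (SE). Nr1h4, the gene of the bile acid receptor FXR that induces Nr0b2, was at 0.91 and 0.77 against 0.58 and 0.49. Abcg8, a sterol transporter gene, was at 1.34 and 1.04 against 0.84 and 0.83. Of 19 genes of glycolysis, glucose uptake and glycogen, 2 were higher and 3 lower at that level (26.3%), with a median of -0.23. Without LFD wildtype replicate 1 the median was -0.08 with 3 higher and 0 lower, and without LFD Alb::GC replicate 1 it was -0.09. Pfkfb3, which makes an activator of glycolysis, was at 0.74 and 0.47 against 1.49 and 1.26. Gys2, the liver glycogen synthase gene, was at 1.04 and 0.92 against 0.64 and 0.8, and Ppp1r3c, a glycogen-targeting phosphatase subunit, at 2.73 and 1.99 against 1.35 and 1.35 in 1 probe set while its other differed by -0.10.

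Genes that differ between the sexes in liver, which growth hormone and STAT5 control, varied between replicates on LFD. These mice were all male. The 13 female-biased genes had a median difference of 0.85, with 2 higher at an unadjusted p under 0.05, Acot3, an acyl-CoA thioesterase gene, at 0.2 and 0.22 against 0.5 and 0.55 and Slc22a26, an organic anion transporter gene, at 0.55 and 0.84 against 1.66 and 1.03. They were 15.4% of the list against 10.2% of all genes, and the other Slc22a26 probe set overlapped with a difference of 0.09. Sult3a1, a sulfotransferase gene, was at 0.1 and 1.18 in wildtype against 2.37 and 1.01 in Alb::GC, so the genotypes overlapped. With the probe set of smallest spread the median of the list was 0.34, and it was 0.38 without LFD wildtype replicate 1 and 0.35 without LFD Alb::GC replicate 2. Among male-biased genes 3 were lower in Alb::GC at an unadjusted p under 0.05 and none higher, 23.1% of the list. The 13 male-biased genes had a median of -0.24, which was -0.05 without LFD wildtype replicate 1, -0.11 without LFD Alb::GC replicate 1, -0.42 without LFD wildtype replicate 2 and -0.44 without LFD Alb::GC replicate 2. They included Cyp4a12a, an arachidonate hydroxylase gene, at 1.43 and 1.43 against 1 and 1.03 and Hsd3b5, a steroid dehydrogenase gene, at 2.12 and 1.8 against 1.05 and 1.36. On HFD the medians stood at -1.17 for the female-biased and 1.16 for the male-biased genes. There Hsd3b5 rose by 4.25 in Alb::GC (adjusted p 0.044 by limma), from 0.01 and 0.01 to 0.95 and 1.26, a call that was lost when any 1 HFD array was left out.

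Acute phase genes were led by 1 array. Saa1, serum amyloid A, was at 0.64 and 0.37 in wildtype against 1.14 and 5.5 in Alb::GC, and Lcn2, lipocalin 2, at 0.14 and 0.11 against 0.24 and 1.48. Saa2 was at 1.1 and 0.64 against 1.11 and 14.25. LFD Alb::GC replicate 2 was the highest array in these 3 genes, and without it the Saa1 difference was 1.14 in place of 2.26, and 3.37 without LFD Alb::GC replicate 1. The median over 26 acute phase and metallothionein genes was -0.01.

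Markers of other liver cells were read in the same way. In bulk tissue, fewer cells of a type and less RNA per cell cannot be told apart. Of 13 stellate cell or fibroblast markers, 11 lay above 0, 4 were higher in Alb::GC at an unadjusted p under 0.05 and none lower (30.8% against 10.2% of all genes), and the median was 0.55. The mean ratio of the list was 0.788 and 0.995 in wildtype against 1.28 and 1.10 in Alb::GC. Col3a1, a fibrillar collagen gene, was at 0.72 and 0.82 against 1.31 and 1.15, while its other probe set overlapped with a difference of 0.12. Lum, lumican, was at 0.84 and 0.91 against 1.78 and 1.23, and Tagln, a smooth muscle actin-binding protein gene, at 0.96 and 1.22 against 2.28 and 1.67. The median of these markers was 0.32 without LFD wildtype replicate 1 and 0.27 without LFD Alb::GC replicate 1. The median was 0.17 over 13 endothelial markers, 0.14 over 10 neutrophil markers and 0.00 over 14 Kupffer cell or macrophage markers. Because the values are ratios, none of these markers can be shown to be absent. The part of these cells in the other results was not tested.

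With 1 LFD array left out, 18 of the 43 list medians changed sign, those of clock, stress response, immediate early, p53, acute phase and neutrophil genes among them, and none of the 18 was beyond 0.20 in size with all arrays. The 19 of 43 gene lists not described in the paragraphs above had medians between -0.22 and 0.09. Some of them, such as cholesterol synthesis and interferon-inducible genes, were among the 18 that changed sign. Of the 339 entries in these 19 lists, 8 were higher and 18 lower at an unadjusted p under 0.05. By list the share ran from 0%, as for interferon-inducible genes, to 33.3% of 6 cholangiocyte markers, against 10.2% of all genes. It was 26.7% for 15 NRF2 antioxidant targets. No member of any of the 43 lists passed the adjusted threshold on LFD.

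**Figure D4:**
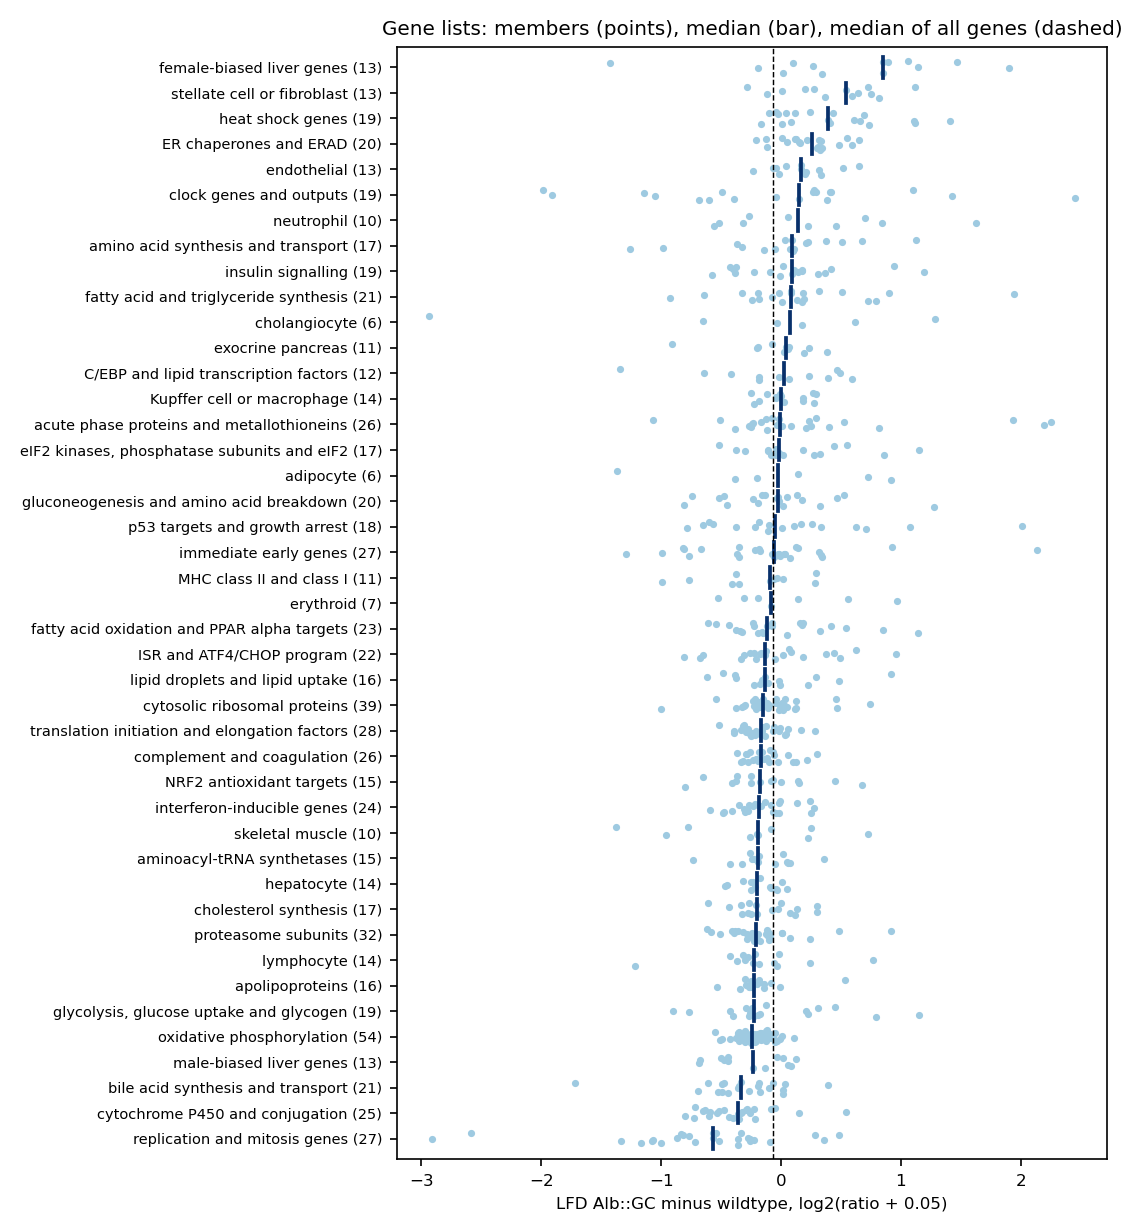
Alb::GC minus wildtype on LFD, on the log2(ratio + 0.05) scale (horizontal axis), for the members (points) of 43 gene lists, with each list's median (dark bar), the number measured in brackets and the median of all genes (dashed, -0.07). Medians run from -0.57 for replication and mitosis genes to 0.85 for female-biased liver genes, and single members spread widely within most lists.

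The genotype difference on HFD was set beside that on LFD. The 2 diets share no array, but their tests share 1 spread per probe set. On HFD 30 probe sets passed the adjusted threshold by limma, 8 higher and 22 lower in Alb::GC, 0.133% of all. That count was 0 when any 1 of the 4 HFD arrays was left out. Of the 124 probe sets at an unadjusted p under 0.001 on LFD, 47.6% had the same sign on HFD, against 49.9% of all probe sets. Of the 30 called on HFD, 12 had the same sign on LFD, and 4 of these were at an unadjusted p under 0.05, among them Pparg and Onecut1. Another 6 were at that level with the opposite sign, in Ccdc80, Sh3kbp1, Pafah1b1, Stat3, Vegfb and 1 probe set without a single symbol. Over all probe sets 10.3% were at that level on LFD. Calls on HFD favour probe sets of small shared spread, which also lowers p on LFD. These counts are therefore no independent reading. Pparg was at 6.13 and 6.02 on the HFD wildtype arrays against 0.54 and 0.26 with Alb::GC, a difference of -3.84 with an adjusted p of 0.044 by limma. Onecut1, a hepatocyte transcription factor gene, was at 0.42 and 0.61 against 1.27 and 0.93 on LFD and at 0.67 and 0.58 against 3.75 and 4.19 on HFD. Lpin1 was 1.14 higher in Alb::GC on HFD, with an adjusted p of 0.0719 by limma.

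The test of the difference between the diets called no probe set (0 of 22626, 0%), with a smallest adjusted p of 0.087 by limma and 2517 probe sets at an unadjusted p under 0.05. Without the variance trend it called 5. Ccdc80, an extracellular matrix gene of adipose tissue, was at 0.33 and 0.35 in LFD wildtype and 1.62 and 2.51 in LFD Alb::GC, and at 3.41 and 2.44 against 0.28 and 0.31 on HFD. Its other probe set differed by 0.23 on LFD and by -0.43 on HFD. Sh3kbp1, an endocytic adaptor gene, was in 1 probe set at 0.62 and 0.63 against 1.98 and 1.82 on LFD and at 2.01 and 2.33 against 0.54 and 0.37 on HFD. Its other probe sets did not follow on HFD, where they differed by -0.02 and 0.56. These probe sets were on opposite sides in the 2 diets and were chosen after their values were seen. The genotype difference averaged over both diets called no probe set either (0%), with a smallest adjusted p of 0.0717 by limma and 2596 probe sets at an unadjusted p under 0.05.

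**Figure D5:**
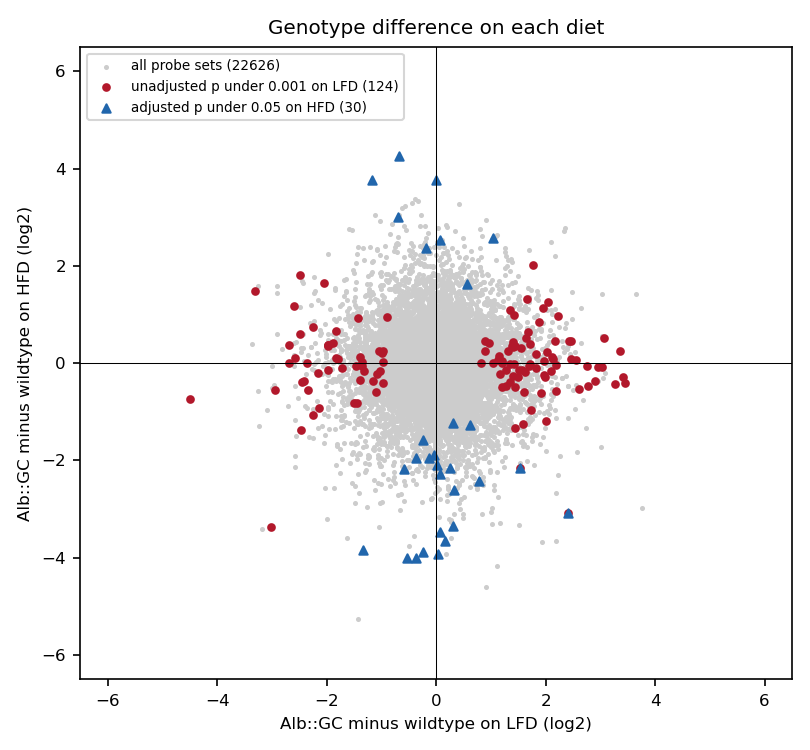
Alb::GC minus wildtype on the log2(ratio + 0.05) scale, on LFD (horizontal axis) and on HFD (vertical axis), for all 22626 probe sets (grey), the 124 at an unadjusted p under 0.001 on LFD (red) and the 30 called on HFD (blue triangles). The red points spread along the LFD axis and sit on both sides of 0 on HFD, with 47.6% on the same side.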

How the data were processed

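Liver RNA of 16 samples was measured on arrays after biotin labelling with an Affymetrix kit, per the labels' protocols. The values the authors deposited were each a linear ratio around 1, a unit read from the values themselves. Not given in the sources used here are scanner software, summary method and the reference of the ratio. The number of arrays limits the precision. Groups came from each array's description. From the ratios, log2(ratio + 0.05) was computed, which understates changes near the smallest value of 0.01. The 64 control probe sets were left out. Symbols were read from GEO's platform annotation: 20380 probe sets had 1 symbol, 1555 none and 691 several, which named no gene. In the lists a gene was represented by its probe set of highest mean log2 ratio over the 16 arrays.

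The tests used limma 3.58.1 (R 4.3.3) with a variance trend and Benjamini-Hochberg adjustment over 22626 probe sets, two-sided at 0.05. Residual degrees of freedom were 4 for the diet arrays, plus 2.3 borrowed across probe sets, and 6 for AP20187. Tests were run on simulated data with known shifts, which checked the mean estimate and the sign of calls. That check set no requirement on how many shifts were found or on false calls. Files were read with pandas 2.3.3 and data.table (version 1.17.8), and plots drawn with matplotlib 3.10.9 in Python 3.11.15. Of 927 entries in 43 gene lists 809 were measured. The comparison, lists and named genes were chosen with earlier results of these data known. Chosen by rule were the 12 genes of smallest unadjusted p in each direction, 2 of smallest p per list and a fixed set of stress and lipid genes. The text names the genes of smallest p for only some lists, and adds further list members with their values. Promoter sequences came from RefSeq tables of GRCm38.p6. Alternatives were other offsets and scalings, no variance trend, a filter on low ratios, array weights, the arrays of 1 diet alone, and each array left out.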

Additional observations from a re-analysis of the deposited data

How the results depend on the processing

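The comparison of Alb::GC with wildtype on LFD called 0 probe sets in the main setting and in all 13 alternatives. By other rules it gave 2337 probe sets at an unadjusted p under 0.05, 124 at an unadjusted p under 0.001, and 1421 with at least a 2-fold difference and arrays that did not overlap. The Ppp1r15a difference kept its sign, from 0.23 to 0.66 with 1 array left out. The 30 calls on HFD became 0 with quantile normalization, 0 with the 4 HFD arrays alone, 15 without the variance trend and 210 with array weights. With 1 HFD array left out they ranged from 0 to 0, and the lone array of its group was then assumed to vary like the others. The test of the difference between diets gave 5 calls without the variance trend. Small differences changed sign. Eif2ak3 went to 0.0056 after median centring. With 1 LFD array left out, Eif2ak3 ranged from -0.1228 to 0.0368, Atf4 from -0.3585 to 0.3946, Fgf21 from -0.6196 to 0.7855, Cebpb from -0.0061 to 0.1428 and G0s2 from -0.9714 to 0.0062. The cause was not tested. The alternatives that left out LFD ratios under 0.1, and the list medians with an array left out, were chosen after seeing the data. No paired analysis was possible because the labels carry no replicate numbers shared by the genotypes. The files hold no signal over background, so weak probe sets could not be marked.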
